A study of Mus musculus with 12 samples.

Results

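The 4 *Id* genes of the mouse, *Id1*, *Id2*, *Id3* and *Id4*, were followed with 250 kb of flanking sequence on either side of each gene in 8 lists of histone peaks, and are 4 of 21938 protein-coding genes of the annotation. They were taken by name, with earlier results of these data known. Cortices of *Gad67-GFP* heterozygous pups at postnatal day 2 were sorted into GFP+ cortical interneurons (CINs), in which GFP marks GABAergic cells, and GFP- cells (non-CINs), a mixed population that the study describes as enriched in projection neurons and glia. Native ChIP was performed for H3K27ac, a mark of active promoters and enhancers, and for H3K27me3, a mark laid down by Polycomb at repressed or poised chromatin, in 2 replicates of each population, each from pooled litters of mice on a mixed background with CD-1. All groups carry the same GFP allele, so that they differ by the sort gate, the antibody and the replicate. The 4 input samples entered only through the peak calling of the authors. The loci held 130 of the 70275 H3K27ac regions of the genome and 98 of the 59625 H3K27me3 regions, a region being the union of overlapping peaks of the 4 lists of a mark.

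Id proteins are helix-loop-helix factors that lack a basic DNA-binding region. They pair with E proteins, which are the common partners of proneural factors such as Neurog2, and so keep them off DNA. BMP signals acting through SMAD factors are classical inducers of *Id* genes, and in the developing forebrain *Id* expression is known in dividing progenitors, astrocytes and some neurons. The study named a pair of enhancers near *Id4* that are active in different parts of the embryonic forebrain, *hs1175* in the basal ganglia, where CINs arise, and *hs1533* in the cortex. In these data the study reported H3K27ac enriched in CINs at *hs1175* and in non-CINs at *hs1533*, the latter not in every replicate. Its ChIP-qPCR went in the same directions without reaching significance. Neither enhancer was placed on the peaks here.

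Sequences from these loci are shown first. Promoter sequence from RefSeq (GRCm38.p6, the build that mm10 names) was matched for 3 of the 4 genes, *Id2*, *Id3* and *Id4*; *Id1* is named only. The 250 bases before the start of each gene are given 5′ to 3′ on the gene's strand, at chr12:25096093-25096342 on the minus strand for *Id2*, at chr4:136143572-136143821 on the plus strand for *Id3* and at chr13:48260866-48261115 on the plus strand for *Id4*. The RefSeq starts of *Id2* and *Id3* lie inside the longer gene spans of the annotation used for the windows. Capitals mark matches on either strand to the TATA box TATAAA, to the CCAAT box, to the cAMP response element TGACGTCA, to the palindrome GGCGCC or to the E boxes CAGCTG and CACGTG.
Id2 promoter: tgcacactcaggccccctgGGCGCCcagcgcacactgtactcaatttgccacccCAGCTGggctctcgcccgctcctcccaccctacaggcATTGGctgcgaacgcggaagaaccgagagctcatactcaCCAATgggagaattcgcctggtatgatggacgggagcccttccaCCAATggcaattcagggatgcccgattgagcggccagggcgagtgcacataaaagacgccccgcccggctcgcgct
Id3 promoter: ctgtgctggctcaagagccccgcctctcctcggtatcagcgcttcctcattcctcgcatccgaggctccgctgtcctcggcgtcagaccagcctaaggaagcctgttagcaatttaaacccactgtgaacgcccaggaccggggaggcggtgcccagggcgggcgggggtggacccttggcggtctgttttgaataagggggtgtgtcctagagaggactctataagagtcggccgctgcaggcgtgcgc
Id4 promoter: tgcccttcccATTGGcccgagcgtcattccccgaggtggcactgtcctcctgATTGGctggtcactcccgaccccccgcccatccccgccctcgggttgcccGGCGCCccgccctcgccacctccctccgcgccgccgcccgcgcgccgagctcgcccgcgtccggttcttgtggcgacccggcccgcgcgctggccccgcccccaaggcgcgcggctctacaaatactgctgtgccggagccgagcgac
The *Id2* promoter held 3 matches to CCAAT, 1 to GGCGCC and 1 to the E box CAGCTG. Matches in the *Id4* promoter were 2 to CCAAT and 1 to GGCGCC. None of the 6 motifs was matched in the 250 bases before *Id3*. Of 32851 promoters of the same length, 33.8% held CCAAT, 9.59% GGCGCC, 13.0% CAGCTG, 12.4% TATAAA, 6.02% CACGTG and 1.55% TGACGTCA. The G and C content was 62.8% for *Id2*, 62.8% for *Id3* and 75.6% for *Id4*.

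The distal sequences shown are the central 200 bases, on the plus strand of GRCm38.p6, of regions picked after the values were seen, because the lists of CINs and non-CINs differed there. They are the *Id4* region of CINs 123.2 kb downstream (chr13:48384327-48384526), the *Id4* region 101.8 kb upstream that carried both marks (chr13:48159348-48159547), 3 of the non-CIN-only regions near *Id1* and *Id2* (chr2:152729903-152730102, chr12:25124529-25124728 and chr12:25253191-25253390) and the strongest flank region of *Id2* in non-CINs (chr12:25240500-25240699). Capitals mark matches on either strand to the homeodomain core TAATTA, to the SOX core CTTTGT, to the MEIS core CTGTCA or to the E boxes CAGCTG and CAGATG.
Id4 123.2 kb downstream: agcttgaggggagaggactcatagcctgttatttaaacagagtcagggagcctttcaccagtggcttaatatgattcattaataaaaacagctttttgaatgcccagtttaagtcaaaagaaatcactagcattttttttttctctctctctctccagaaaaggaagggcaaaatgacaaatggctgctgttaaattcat
Id4 101.8 kb upstream: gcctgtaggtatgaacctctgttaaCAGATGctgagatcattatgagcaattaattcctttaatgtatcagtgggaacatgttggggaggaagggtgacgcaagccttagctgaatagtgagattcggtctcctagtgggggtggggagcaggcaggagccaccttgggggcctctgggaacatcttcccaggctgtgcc
Id1 6.2 kb upstream: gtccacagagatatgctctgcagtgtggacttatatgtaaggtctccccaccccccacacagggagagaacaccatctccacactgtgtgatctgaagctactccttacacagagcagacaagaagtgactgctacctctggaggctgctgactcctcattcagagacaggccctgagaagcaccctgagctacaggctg
Id2 27.5 kb upstream: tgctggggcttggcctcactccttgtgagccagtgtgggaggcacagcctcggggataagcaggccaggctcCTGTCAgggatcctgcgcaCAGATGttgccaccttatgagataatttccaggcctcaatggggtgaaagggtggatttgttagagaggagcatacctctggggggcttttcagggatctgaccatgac
Id2 156.2 kb upstream: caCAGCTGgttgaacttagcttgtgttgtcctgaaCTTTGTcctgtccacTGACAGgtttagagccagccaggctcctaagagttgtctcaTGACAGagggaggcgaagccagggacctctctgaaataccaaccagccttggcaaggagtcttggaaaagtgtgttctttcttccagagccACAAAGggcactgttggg
Id2 143.5 kb upstream: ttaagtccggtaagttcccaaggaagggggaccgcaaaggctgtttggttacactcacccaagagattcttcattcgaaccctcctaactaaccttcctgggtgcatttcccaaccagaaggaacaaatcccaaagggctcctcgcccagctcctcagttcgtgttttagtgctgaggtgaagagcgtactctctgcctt
The region 156.2 kb upstream of *Id2* held 2 matches to CTTTGT, 2 to CTGTCA and 1 to CAGCTG. The *Id2* region 27.5 kb upstream held 1 match each to CTGTCA and CAGATG, and the *Id4* region 101.8 kb upstream held 1 to CAGATG. No match lay in the central 200 bases of the other 3. Over the central 200 bases of all 55933 distal H3K27ac regions, 6.70% held TAATTA, 23.5% CTTTGT, 16.5% CTGTCA, 14.6% CAGCTG and 16.2% CAGATG. Among the 30 distal regions of the *Id* loci that were in all 4 H3K27ac lists, 2 held TAATTA, 9 CTTTGT, 4 CTGTCA, 3 CAGCTG and 0 CAGATG. Among the 5 found in 1 population only, 0 held TAATTA, 1 CTTTGT, 3 CTGTCA, 2 CAGCTG and 1 CAGATG. The CIN region downstream of *Id4* had the lowest G and C content of the 6, at 37.5%, and the others ranged from 51.0% to 56.5%.

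The sorted populations were first checked at marker genes, by the length under H3K27ac peaks from 5 kb upstream of a gene to its end. Of 6 GABAergic markers, 5 had longer H3K27ac in both CIN lists, with summed lengths of 34697 to 44692 bp in CINs against 434 to 652 bp in non-CINs, and *Lhx6* had no H3K27ac peak in any list. *Slc32a1*, *Dlx1* and *Dlx2* had none in either non-CIN list. Over all 14672 genes with an H3K27ac peak, 18.1% were longer in both CIN lists and 18.0% in both non-CIN lists. For astrocytes and radial glia, 4 of 5 markers were longer in both non-CIN lists (77790 to 81577 bp against 53144 to 55664 bp in CINs), and all 5 had peaks in every list. The excitatory list was weakly marked, with 2294 to 5139 bp in CINs and 4610 to 5528 bp in non-CINs, no peak at *Neurod2* or *Slc17a7*, and 1 of 5 markers (*Emx1*) longer in non-CINs. Of 4 oligodendrocyte lineage markers, 1 was longer in each population. One of 3 microglial markers was longer in non-CINs (*Cx3cr1*; *Aif1* had no peak), and of 3 endothelial markers none was (*Cldn5* had no peak). In sorted bulk samples, a mark carried by fewer cells and a weaker mark per cell cannot be told apart.

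All 4 *Id* genes carried H3K27ac at their promoters in both replicates of both populations. Promoters began 1 kb before a start site and ended 100 bp after it. Such H3K27ac was found at 49.1% of all protein-coding genes in CINs and at 48.1% in non-CINs. The merged H3K27ac peak over each gene was long: 5796 to 6420 bp at *Id1*, 6789 to 8840 bp at *Id2*, 5684 to 10432 bp at *Id3* and 3838 to 5953 bp at *Id4*. These lengths were at or above the 97.8 percentile of the merged peaks of their lists. H3K27me3 reached the promoter window of 0 of the 4 genes in CINs, where 11.1% of genes had it, and of 0 in non-CINs, where 11.1% had it. Both marks at the promoter were thus found at 0 of the 4 in either population (2.23% of genes in CINs and 1.92% in non-CINs). These counts use the annotated starts. At *Id3*, merged peaks of both marks overlapped the RefSeq promoter printed above (136143572 to 136143821) in every list. H3K27me3 began there at 136143679 and 136143707 in CINs, and at 136143818 and 136143750 in non-CINs. When the promoter was widened to 2 kb on both sides, both marks were found at *Id1*, *Id3* and *Id4* in CINs, against 5.57% of all genes, and at *Id3* and *Id4* in non-CINs, against 5.36%.

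H3K27ac over the genes was longer in non-CINs than in CINs at *Id1*, *Id2* and *Id3*, and not separated at *Id4*. The measure is the length under peaks in the gene window defined for the markers. With 2 lists on each side, no exact permutation test can give a two-sided p below 0.333, and this is the value wherever 2 values of each population do not overlap.

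*Id1* (chromosome 2, 152736251 to 152737410, plus strand) had 3004 and 2774 bp under H3K27ac peaks in replicates 1 and 2 of CINs, versus 3830 and 3240 bp for non-CINs. Both non-CIN values lay above both CIN values (mean 3535.0 ± 417.2 against 2889.0 ± 162.6 bp, SD, n = 2). The strongest peak in the window stood at percentiles 93.2 and 98.8 of the fold enrichment of its list for CINs, versus 95.5 and 99.9 for non-CINs. These ranks overlapped, and all were at 93.2 or above. With peaks of a −log10 *q* of 4 or more, the *Id1* lengths of the populations overlapped too (difference of means 588.0 bp).

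*Id2* (chromosome 12, 25093799 to 25097140, minus strand) had 6940 and 6568 bp for CINs versus 6958 and 7085 bp for non-CINs, a narrow separation. Scaled by the total covered length of each list, the *Id2* values overlapped. Its strongest peak was at percentiles 88.1 and 95.5 for CINs versus 98.9 and 99.1 for non-CINs, with no overlap.

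*Id3* (chromosome 4, 136143497 to 136145755, plus strand) showed the widest gap of the 4, with 5339 and 5482 bp for CINs versus 6921 and 7259 bp for non-CINs. In non-CIN replicate 2 the whole 7259 bp window was under 1 peak. The merged peak over *Id3* ended at positions 136144767 and 136144957 in CINs, within the gene, and ran past the gene's end to 136148736 and 136147760 in non-CINs. Top percentiles were 76.6 and 89.3 for CINs versus 94.0 and 89.5 for non-CINs, barely apart in replicate 2.

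For *Id4* (chromosome 13, 48261228 to 48266026, plus strand) the lengths were 3533 and 4253 bp for CINs versus 3762 and 4953 bp for non-CINs. These overlapped between populations. With the replicate block, that is comparing lists of the same replicate number, non-CINs were higher within both replicates. At a −log10 *q* of 4 the difference of means, non-CINs minus CINs, was -178.5 bp. Its top percentiles were 83.9 and 85.5 for CINs versus 95.9 and 82.3 for non-CINs, with no common direction.

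Counted over the members, 3 of 4 had longer H3K27ac in non-CINs, against 18.0% of the 14672 genes with an H3K27ac peak in any list, and 0 of 4 in CINs, against 18.1%. With the replicate block the count in non-CINs was 4 of 4, against 29.2% of genes, and in CINs 0, against 29.8%. The top percentile was higher in non-CINs at 2 of 4 genes, against 15.6% of genes, and higher in CINs at 0 of 4, against 20.8%. Within both replicates it was higher in non-CINs at 3 of 4, *Id1* being added, against 24.6%, and in CINs at 0, against 33.2%. The astrocyte and radial glial markers moved in the same direction (4 of 5), and their part in these differences was not tested.

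**Figure D1:**
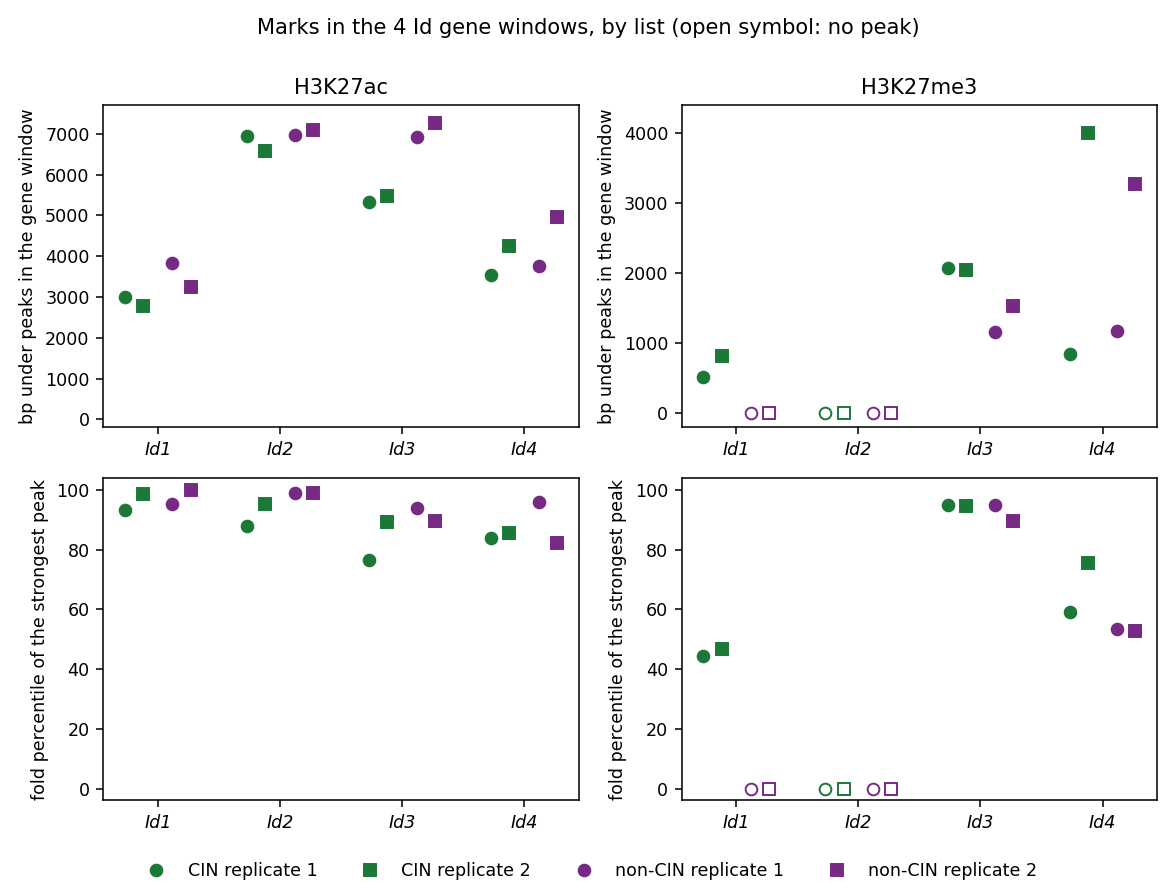
Length under peaks in bp (top) and fold percentile of the strongest peak (bottom) in the window of each *Id* gene, for H3K27ac (left) and H3K27me3 (right). Circles are replicate 1 and squares replicate 2, green for CINs and purple for non-CINs, and open symbols stand for no peak. H3K27ac lengths of non-CINs lie above those of CINs at *Id1*, *Id2* and *Id3*, and H3K27me3 at *Id1* appears in CINs only.

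H3K27me3 at the genes followed another order. At *Id1* it was listed in CINs only, with 527 and 817 bp in the CIN lists and no peak in either non-CIN list. The stretch of 707 bp shared by the merged peaks (chromosome 2, 152736563 to 152737269) lay inside the gene, under the H3K27ac peak, at percentiles 44.5 and 46.9 of the lists. Peaks of both marks covered the same 460 and 564 bp in CIN replicates 1 and 2. At *Id2* no list had H3K27me3 in the gene window.

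*Id3* had H3K27me3 in every list, with 2077 and 2049 bp for CINs versus 1156 and 1537 bp for non-CINs. Both CIN lengths were above both non-CIN lengths (2063.0 ± 19.8 against 1346.5 ± 269.4 bp, SD, n = 2), while the percentiles of the strongest peak, 95.1 and 94.6 in CINs, lay around the higher of the non-CIN values and above the lower (89.8). It lay over the gene body and beyond, and 614 and 1251 bp for CINs versus 1156 and 1537 bp for non-CINs were also under H3K27ac. So *Id3*, whose H3K27me3 had the highest fold percentiles of the 4 but not the greatest mean length, also carried a long H3K27ac peak in each population.

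*Id4* had 854 and 4008 bp of H3K27me3 for CINs versus 1176 and 3281 bp for non-CINs. Replicate 2 was the longer in both populations, as it was for the H3K27me3 lists as a whole (44.2 and 49.8 Mb against 34.5 and 39.4 Mb for replicate 1). The percentiles at *Id4*, 59.1 and 75.5 for CINs versus 53.3 and 52.9 for non-CINs, did not overlap.

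Of the 3 genes with H3K27me3 in any list, 2 (*Id1* and *Id3*) had longer H3K27me3 in CINs, against 7.34% of 8941 genes, and 0 in non-CINs, against 11.1%. By top percentile, 2 (*Id1* and *Id4*) were higher in CINs, against 9.62%, and 0 in non-CINs, against 13.8%. *Id3* was added with the replicate block, so that 3 of 3 were higher in CINs, against 16.7% of genes, and 0 in non-CINs, against 24.1%. The block left the lengths at 2 of 3 in CINs, against 16.7%, and 0 in non-CINs, against 25.4%. Among the markers, H3K27me3 was longer in CINs at 2 of 5 excitatory and 2 of 4 oligodendrocyte lineage genes, and longer in non-CINs at 5 of 6 GABAergic genes and 1 oligodendrocyte lineage gene. No astrocyte, microglial or endothelial marker was called, and the part of these populations in the *Id* values was not tested. The *Id1* peaks had a −log10 *q* of 3.5 in both CIN lists, and at a threshold of 4 they were lost, which left *Id3* alone.

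Beyond the genes, the 4 loci differ in kind. *Id1* and *Id3* lie among many genes, with 20 and 13 other protein-coding genes within reach, of which 6 and 10 had promoter H3K27ac for CINs versus 6 and 9 for non-CINs. *Id2* and *Id4* lie in gene-poor stretches with 2 other protein-coding genes each, and promoters of both were acetylated in both populations. Over the gene and both flanks, H3K27ac covered 28968 and 23638 bp for CINs versus 36769 and 29634 bp for non-CINs at *Id1*. At *Id2* it covered 20476 and 18678 bp for CINs versus 29073 and 23938 bp for non-CINs, and at *Id3* 35629 and 32744 bp for CINs versus 42191 and 37860 bp for non-CINs. Only *Id4* overlapped, with 21819 and 16718 bp against 21000 and 21053 bp. Thus 3 of 4 loci had more in non-CINs, against 14.9% of 20124 genes with the same flanks, and 0 of 4 in CINs, against 13.8%. The counts were the same with the replicate block (32.1% and 32.7% of genes). These windows contain the gene windows and are not independent of them.

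**Figure D2:**
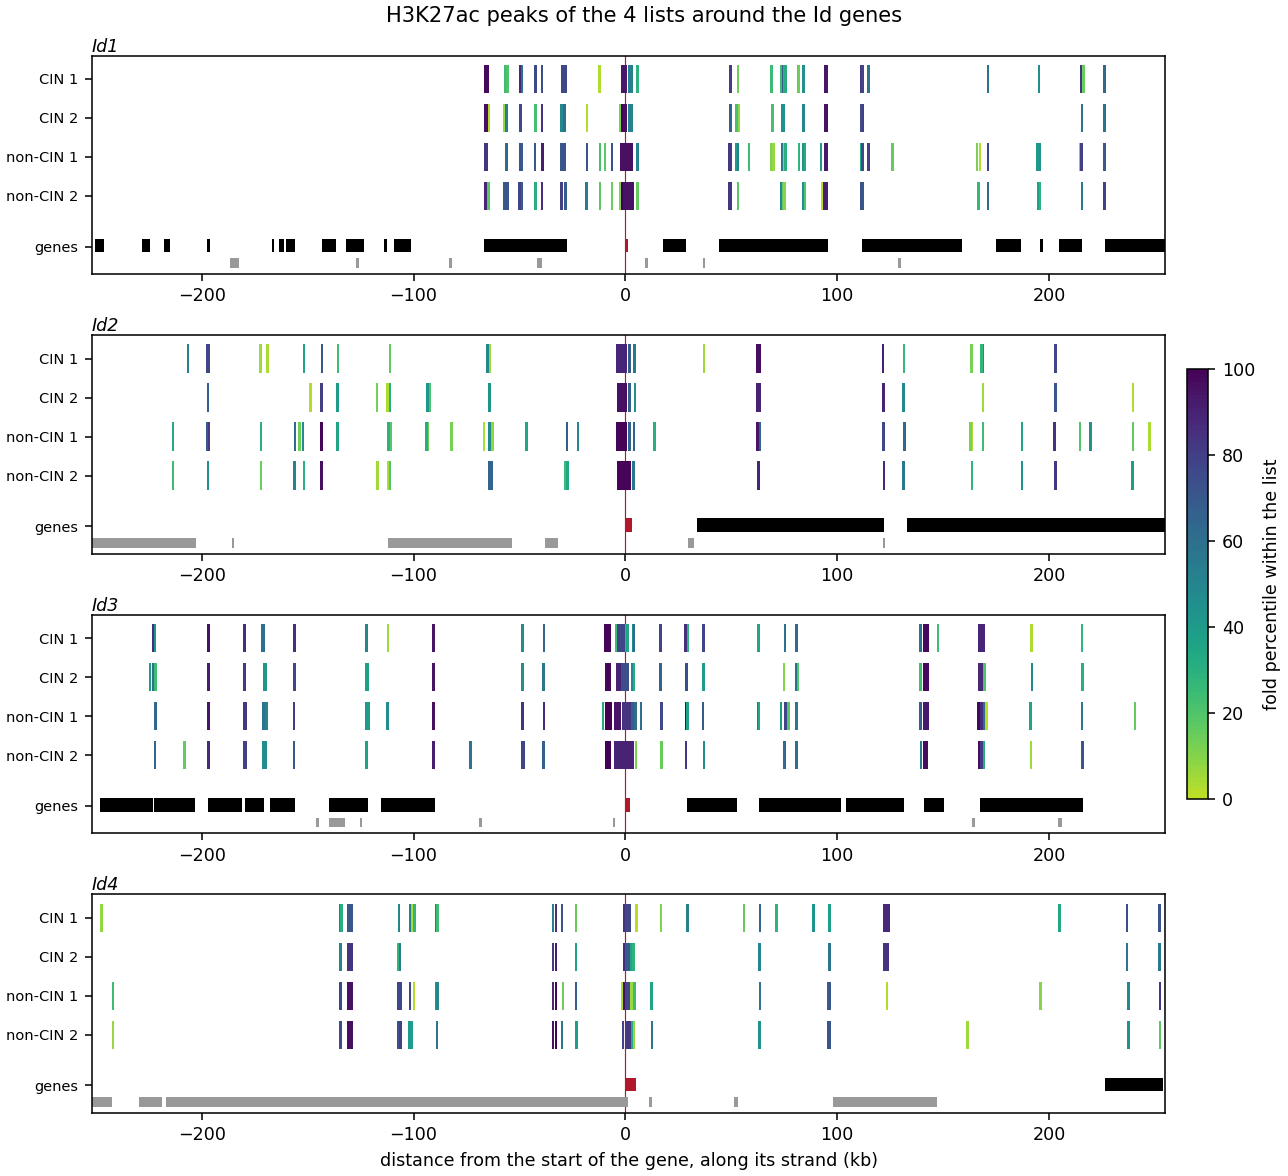
H3K27ac peaks of the 4 lists around each *Id* gene, by distance from the gene's start along its strand in kb (peaks narrower than 1.2 kb are drawn 1.2 kb wide). Colour gives the fold percentile within the list, red boxes are the *Id* genes, black boxes other protein-coding genes and grey boxes other genes. At *Id1*, 6 of 20 other protein-coding genes had promoter H3K27ac in each population. At *Id3* it was found at 10 of 13 in CINs and 9 in non-CINs. Upstream of *Id2* and *Id4* the peaks lie outside protein-coding genes.

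Split by side, the length under H3K27ac upstream of the gene window was greater in both non-CIN lists at all 4 genes, against 17.6% of 18837 genes, and greater in CINs at 0, against 17.5%. The replicate block again gave 4 and 0, against 31.3% and 34.0%. At *Id1* the upstream lengths were 9502 and 8792 bp for CINs versus 12637 and 11793 bp for non-CINs. *Id2* had 5437 and 6289 bp for CINs versus 11964 and 9390 bp for non-CINs, the widest proportional gap. At *Id3* the values were closer, with 15649 and 15326 bp for CINs versus 17367 and 17613 bp for non-CINs. Upstream of *Id4* they were 9099 and 6913 bp for CINs versus 12319 and 11694 bp for non-CINs.

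Downstream, H3K27ac overlapped between populations at *Id1*, *Id2* and *Id3*, and was greater in CINs at *Id4*. Within each replicate, however, non-CINs were longer at *Id1*, *Id2* and *Id3*, so that with the replicate block 3 of 4 were higher in non-CINs, against 32.3% of genes, and *Id4* in CINs, against 33.6%. At *Id1* the downstream lengths were 16462 and 12072 bp for CINs versus 20302 and 14601 bp for non-CINs. The *Id4* lengths were 9187 and 5552 bp for CINs versus 4919 and 4406 bp for non-CINs. Without the block this was 1 of 4 genes in the CIN direction, against 16.7% of 18943 genes, and 0 of 4 in the other, against 17.8%. The *Id4* pattern, upstream higher in non-CINs and downstream higher in CINs, was found at 2.62% of the 17732 genes with peaks in both flanks. It rests on 1 region. Without the region 123.2 kb downstream, the downstream lengths of *Id4* were 5637 and 2458 bp for CINs versus 4449 and 4406 bp for non-CINs, which overlapped. The split of the flanks was chosen after the values were seen.

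That region (chromosome 13, 48382652 to 48386201) lies in an intron of the non-coding gene *Gm48648*. It was the strongest downstream H3K27ac region of CINs at *Id4*, with peaks of 3550 and 3094 bp at percentiles 87.6 and 83.1. In non-CIN replicate 1 it held a peak of 470 bp at percentile 1.7, and in non-CIN replicate 2 none. H3K27me3 was listed there only in non-CINs, as a peak of 334 bp at percentile 22.1 in replicate 1 and of 309 bp at percentile 9.6 in replicate 2, which did not overlap each other. Because of the small non-CIN peak it did not count as CIN-only here, where no overlapping peak in the same-numbered non-CIN list was allowed. The authors' differential peak calling was not repeated. When peaks needed a −log10 *q* of 4, this region was the 1 distal CIN-only H3K27ac region of the 4 loci.

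At the other side of *Id4*, 101.8 kb upstream, a region (48158639 to 48160257) was in non-CIN lists at percentiles 77.8 and 39.2, with 882 and 1361 bp covered. CIN replicate 1 held 332 bp there at percentile 53.9, and CIN replicate 2 no H3K27ac peak. The H3K27me3 region over the same place covered 1949 and 3317 bp in CINs, at percentiles 77.4 and 90.5, and 273 and 1746 bp in non-CINs, at 7.5 and 82.4. In both replicates the order of the populations was opposite for the 2 marks, with H3K27ac ranked higher in non-CINs, or listed there only, and H3K27me3 ranked higher in CINs. In CIN replicate 1 and non-CIN replicate 2, peaks of both marks lay in the H3K27ac region.

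A further 4 distal regions upstream of *Id4* were in all 4 H3K27ac lists, and all 4 ranked higher in both non-CIN lists. The strongest, 33.5 kb upstream (48226347 to 48229091), stood at percentiles 84.7 and 92.7 for CINs versus 98.8 and 99.6 for non-CINs. The region 130.0 kb upstream stood at 69.8 and 82.8 for CINs versus 94.8 and 96.0 for non-CINs. Those 134.5 and 106.7 kb upstream lay between 49.0 and 53.2 in CINs and between 74.7 and 78.3 in non-CINs. All are in introns of the non-coding genes *A330033J07Rik* and *Gm36346*. Downstream, the region 96.2 kb away ranked higher in non-CINs (38.1 and 56.7 against 70.6 and 71.2), the region on an exon of *Zfp169* ranked higher in CINs (73.1 and 57.0 against 47.8 and 43.2), and the third, 63.6 kb away, overlapped. The *Zfp169* region was nevertheless shorter in CINs, with 230 and 200 bp covered, than in non-CINs, with 1491 and 827 bp.

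Over the 4 loci, 30 distal H3K27ac regions were in all 4 lists. Of these, 15 of 30 ranked higher in both non-CIN lists, against 31.9% of the 15721 such regions of the genome, and 3 ranked higher in both CIN lists, against 16.5%. With the replicate block 16 ranked higher in non-CINs, against 43.3%, and 6 in CINs, against 24.6%. The 15 were 5 at *Id4*, 4 at *Id2*, 4 at *Id3* and 2 at *Id1*. The strongest of those at *Id2* was 143.5 kb upstream (chromosome 12, 25239740 to 25241459), at 69.8 and 79.4 for CINs versus 98.7 and 95.4 for non-CINs. This intergenic region, in the flank with no protein-coding gene, ranked close to the *Id2* gene peak in non-CIN replicate 1. At *Id3* the region 48.5 kb upstream stood at 45.5 and 44.7 for CINs versus 83.2 and 77.6 for non-CINs. A region 8.6 kb upstream of *Id3* was among the strongest of every list (98.3 and 98.5 in CINs, 99.6 and 99.5 in non-CINs), above the peak over *Id3* itself, and is not counted as distal because it meets the promoter window of the small RNA gene *Gm26001*. It covered 2891 to 3640 bp in each list.

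**Figure D3:**
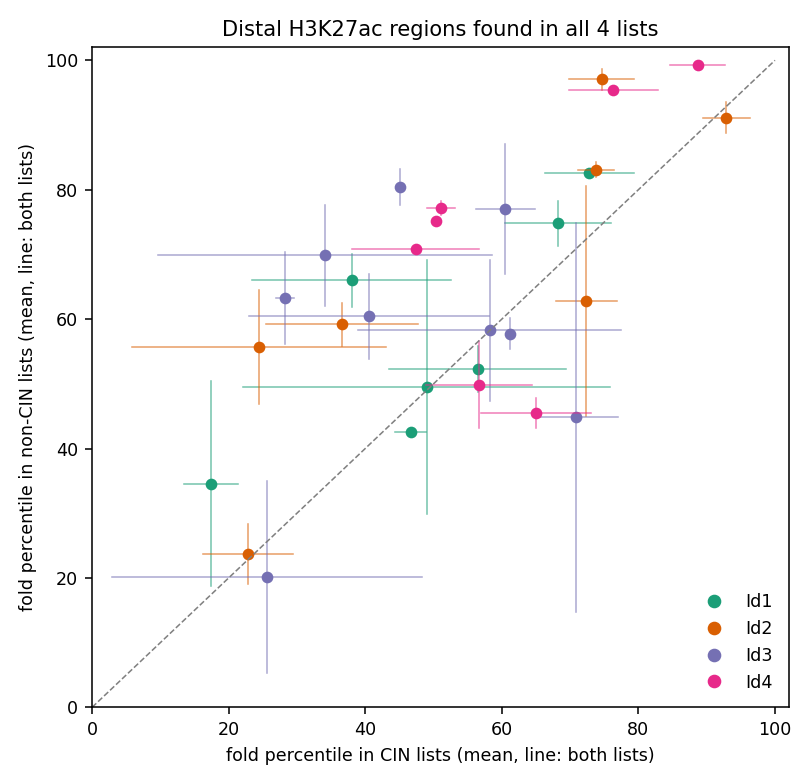
Fold percentile of each distal H3K27ac region found in all 4 lists at the *Id* loci, in CINs (x axis) and non-CINs (y axis). Points are means of the 2 lists, lines join the lists and colours give the locus. Of 30 regions, 15 have both non-CIN values above both CIN values, among them 5 of the 7 at *Id4*. The reverse holds for 3.

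Distal regions found in 1 population only were few. Of the distal H3K27ac regions at the 4 loci, 101 in all, 0 were CIN-only, against 6.85% of the 55933 distal regions of the genome. Non-CIN-only regions numbered 5 (4.95%), against 4.68%, so that their share was near that of the genome. Distal here means overlapping no promoter, and a one-population region was called where merged peaks of both replicates overlapped each other and met no peak in the same-numbered list of the opposite population. With replicate 2 alone, 10 of 64 were CIN-only (15.6%), against 23.7% of the genome, and 23 non-CIN-only (35.9%), against 25.1%. With replicate 1 alone, 15 of 97 were CIN-only (15.5%), against 30.6%, and 34 non-CIN-only (35.1%), against 24.4%.

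*Id2* held 4 of the 5. The region 27.5 kb upstream (stretch shared by the replicates: chromosome 12, 25124360 to 25124783) stood at percentiles 67.8 and 33.8, and the region 156.2 kb upstream (25252854 to 25253299) at 61.5 and 50.2. Both are intergenic, and both remained non-CIN-only at a −log10 *q* of 4, but the latter was lost when the replicates had to share 50% of each peak. The region 187.2 kb downstream (24909583 to 24910288) lay in an intron of *Mboat2*, a lipid acyltransferase gene, at percentiles 34.4 and 41.8. The last, 213.5 kb upstream (25310499 to 25310941), lay on an exon of the non-coding gene *Gm36723*, at 33.1 and 23.2. The upstream flank of *Id2* thus held 3 non-CIN-only regions, and none of the *Id2* flanks held a CIN-only one.

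The fifth was 6.2 kb upstream of *Id1* (chromosome 2, 152729721 to 152730241), at percentiles 70.4 and 13.0 in the 2 non-CIN lists. Farther out, 18.1 kb upstream of *Id1* (152717498 to 152718802), an intergenic region stood at percentiles 70.7 and 54.3 in non-CINs, with a peak of 410 bp at percentile 2.2 in CIN replicate 2 and none in CIN replicate 1. It was not called non-CIN-only with all listed peaks, but was at a −log10 *q* of 4. The *Id3* locus held no one-population H3K27ac region.

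At *Id4*, 2 non-CIN-only H3K27ac regions overlapped promoters of non-coding genes and so were not distal. One, 12.5 kb downstream at *A330048O09Rik*, stood at percentiles 35.3 and 56.0. The other, 241.9 kb upstream at *4931429P17Rik*, was weak (23.6 and 5.9) and lay where H3K27me3 was listed in CINs only.

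**Figure D4:**
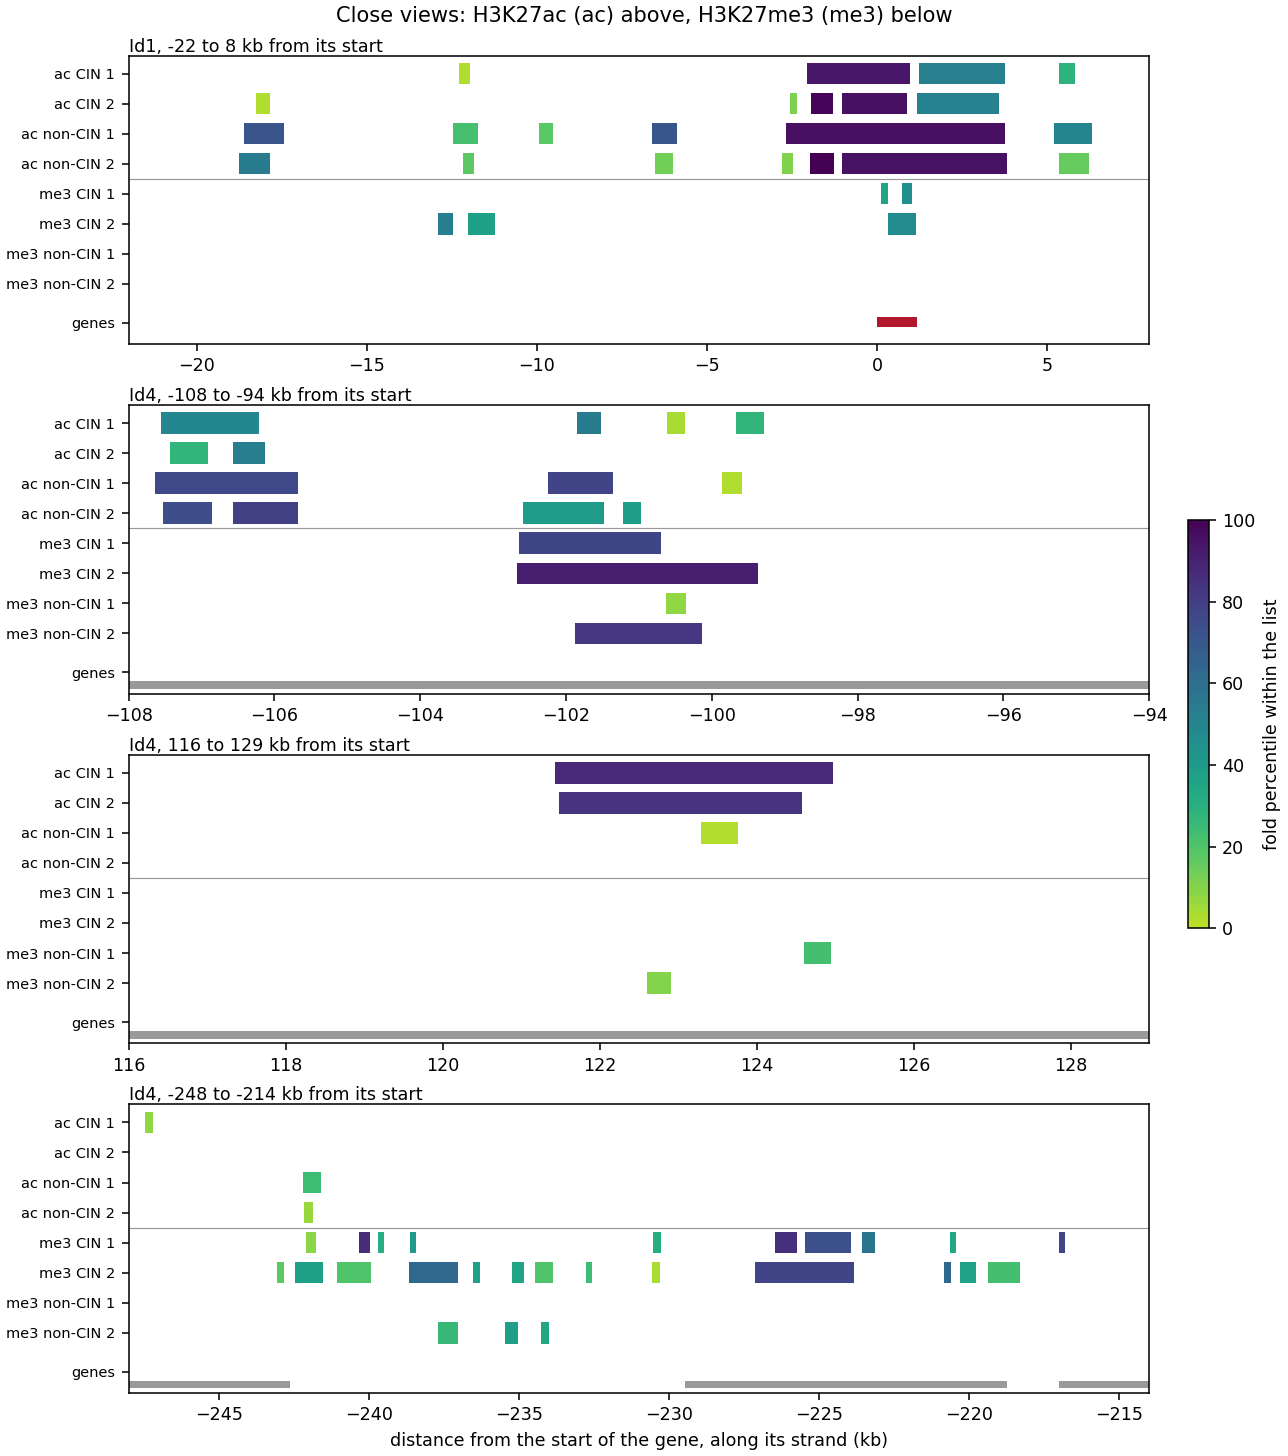
Peaks of the 8 lists at 4 places, by distance from the start of the gene in kb, with H3K27ac above the line and H3K27me3 below it, colour giving the fold percentile within the list. From top to bottom are the *Id1* gene with its upstream side, the *Id4* region 101.8 kb upstream, the *Id4* region 123.2 kb downstream and the far upstream end of the *Id4* locus. The H3K27ac peaks of CINs 123.2 kb downstream of *Id4* measure 3550 and 3094 bp against 470 bp and none in non-CINs, and at the far upstream end H3K27me3 lies mainly in CINs.

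H3K27me3 in 1 population only was found mainly far upstream of *Id4*. Between 245 and 218 kb upstream, CINs had 4289 and 10770 bp under 9 and 13 peaks, whereas non-CINs had 0 and 1378 bp under 0 and 3 peaks. The bounds of this stretch were set after the values were seen, and the whole upstream flank of *Id4* overlapped between populations. The stretch held 4 CIN-only regions, 2 of them distal and 2 at the promoters of *4931429P17Rik* and *Gm36101*. The longest CIN-only stretch was 2652 bp (chromosome 13, 48034750 to 48037401), at percentiles 84.5 and 77.7, and it was the 1 that remained CIN-only at a −log10 *q* of 4. Both distal ones lie on exons of the non-coding gene *Gm36101*.

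Including the stretch inside *Id1*, 3 of 84 distal H3K27me3 regions were CIN-only (3.57%), against 1.08% of the 53567 of the genome. Non-CIN-only were 2 (2.38%), against 2.19%. These 2 were weak, at percentiles 7.6 and 12.3 for the region 111.8 kb downstream of *Id4* in *Gm48648*, and at 2.2 and 30.4 for the region 236.9 kb upstream of *Id3*, in an intron of the cannabinoid receptor gene *Cnr2*. In single replicates the CIN-only shares were 25.5% (replicate 2, against 20.0%) and 28.3% (replicate 1, against 25.2%). The non-CIN-only shares were 31.4% (replicate 2, against 36.8%) and 33.3% (replicate 1, against 39.6%). Of 9 distal H3K27me3 regions in all 4 lists, the *Id3* gene body included, 1 ranked higher in both CIN lists, against 9.28% of 5774, and 0 in both non-CIN lists, against 26.0%. By replicate number 3 ranked higher in CINs, against 17.9%, and 1 in non-CINs, against 44.1%. The 1 was 61.5 kb upstream of *Id3*, at 81.3 and 88.3 for CINs versus 42.1 and 79.2 for non-CINs.

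Over gene and flanks together, H3K27me3 was longer in both CIN lists at 1 of the 4 genes, against 5.54% of 19893, and in both non-CIN lists at 0, against 17.2%. *Id2* was added in CINs with the replicate block, 2 of 4, against 16.9%, and non-CINs stayed at 0, against 43.1%. The 1 was *Id3*, with 11438 and 12828 bp for CINs versus 10858 and 11098 bp for non-CINs. *Id2* was nearly free of the mark, with 1034 to 1835 bp over its whole locus in any list, against 13505 to 32539 bp at *Id4* and 19058 to 28880 bp at *Id1*. In the upstream flanks, H3K27me3 was longer in CINs at *Id2* only (473 and 830 bp against 307 and 0 bp; 6.02% of genes) and longer in non-CINs at *Id3* only (2979 and 2032 bp against 3466 and 3006 bp; 15.8%). Downstream it was longer in non-CINs at *Id4* only (4231 and 7774 bp against 9622 and 11231 bp; 16.0%) and longer in CINs at 0 of the 4 (6.17%). The downstream *Id4* values overlapped at a −log10 *q* of 4, and upstream *Id4* (8420 and 20757 bp against 6757 and 9511 bp) became higher in CINs when scaled by the total length of each list. With the replicate block the upstream flank was longer in CINs at 3 of 4 genes (*Id1*, *Id2* and *Id4*), against 16.0%, and in non-CINs at *Id3*, against 37.1%. The downstream flank was then longer in non-CINs at 3 of 4 (*Id1*, *Id2* and *Id4*), against 37.4%, and in CINs at *Id3*, against 16.4%.

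**Figure D5:**
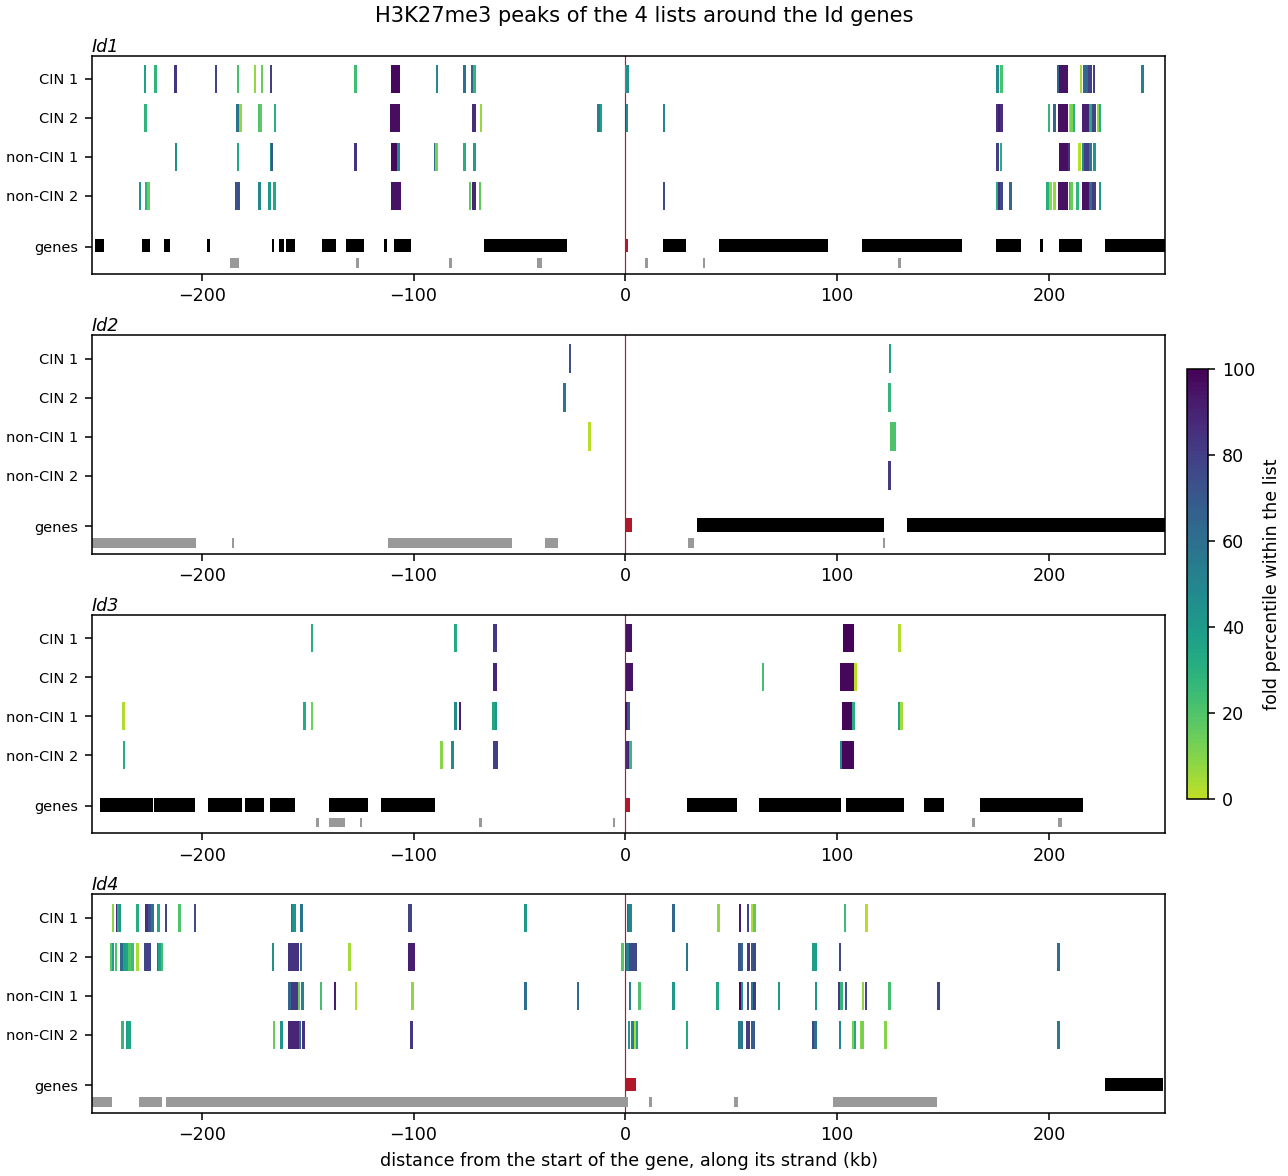
H3K27me3 peaks of the 4 lists around each *Id* gene, by distance from the gene's start along its strand in kb, drawn and coloured as in the H3K27ac map. *Id2* has between 1 and 3 peaks in each list, *Id3* has the mark over the gene in all lists, and the peaks farthest upstream of *Id4* lie mainly in CINs.

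The partners and inducers of Id proteins were read in the same way. Among 12 E proteins and their partners, 10 had H3K27ac peaks, of which 3 were longer in non-CINs and 1 in CINs, against the 18.0% and 18.1% given above. The 3 were the Notch targets *Hes1* (3223 and 2882 bp in CINs, 4301 and 3686 bp in non-CINs) and *Hes5* (4566 and 3212 bp, 4592 and 4659 bp), and the oligodendrocyte factor *Olig2* (5786 and 6386 bp, 7391 and 7231 bp). The E protein gene *Tcf12* was longer in CINs (21998 and 15734 bp, 12253 and 11581 bp). *Tcf3* and *Tcf4*, the other E protein genes, overlapped between populations. With the replicate block, *Tcf3* was also longer in CINs (3849 and 3259 bp, 3314 and 3210 bp) and *Olig1* in non-CINs (2607 and 3782 bp, 3582 and 4744 bp).

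By H3K27me3, 5 of 10 E proteins and partners were longer in CINs, namely *Neurog2*, *Neurod6*, *Hes1*, *Olig1* and *Olig2*, against 7.34% of genes tested, and 1 in non-CINs, against 11.1%. At *Neurod6*, a gene of excitatory neurons, CINs had 1805 and 3171 bp and non-CINs no peak. At *Hes1* the H3K27me3 lengths were 4573 and 6120 bp for CINs versus 2409 and 3266 bp for non-CINs. With the replicate block, *Tcf12* and *Hes5* also had longer H3K27me3 in non-CINs.

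Of 10 BMP receptor and SMAD genes, 5 had longer H3K27ac in non-CINs, against 18.0% of all genes tested, and 0 in CINs, against 18.1%. They were the receptors *Bmpr1a* (17426 and 14330 bp in CINs, 22355 and 26934 bp in non-CINs), *Bmpr1b* (11717 and 13034 bp, 21402 and 20886 bp) and *Bmpr2* (7190 and 6511 bp, 8780 and 10492 bp), the signal-carrying *Smad5* (5790 and 4821 bp, 7413 and 7149 bp) and the inhibitory *Smad6* (2687 and 1475 bp, 5127 and 5102 bp). H3K27me3 was listed at 3 of the 10, and only *Smad6* was separated, longer in CINs (3274 and 4648 bp against 0 and 960 bp). All genes tested gave 7.34% in CINs and 11.1% in non-CINs. With the replicate block, H3K27ac was also longer in CINs at *Acvr1* (12342 and 6932 bp against 9050 and 4862 bp) and in non-CINs at *Smad1*. H3K27me3 was then longer in CINs at *Bmpr1b* too (3043 and 4977 bp against 1441 and 4214 bp). Over all genes the block gave 29.8% in CINs and 29.2% in non-CINs for H3K27ac, and 16.7% and 25.4% for H3K27me3. The lists were described by counts only. Astrocyte and radial glial markers also had longer H3K27ac in non-CINs at 4 of 5 genes, and their part in either pathway list was not tested.

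The genes nearest to each member by the 8 top percentiles, 4 for each mark, were found by Euclidean distance over all protein-coding genes, with 0 in place of a percentile where no peak was listed. Nearest to *Id1* were *Kif13a* (distance 18.7), *Nemp1* (19.7) and the helix-loop-helix repressor gene *Bhlhe40* (20.0), each with H3K27me3 in CINs only. *Id2* was most like *Prkdc* (1.5), *Arhgap5* (1.7) and *Polr3b* (2.3), which also lacked H3K27me3. For *Id3* they were *Kifc2* (7.9), *Jazf1* (9.2) and *Tcf7l2* (9.6), and for *Id4* *Ntrk3* (14.1), *Ptprb* (19.1) and *Pclo* (19.5). The nearest pairs among the *Id* genes were farther apart, at 65.0 for *Id1* and *Id2* and 69.9 for *Id3* and *Id4*. The former distance comes mainly from the H3K27me3 of *Id1* in CINs (percentiles 44.5 and 46.9), set against no peak at *Id2*, while their H3K27ac percentiles were close.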

How the data were processed

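H3K27ac and H3K27me3 native ChIP was analysed in 8 samples, as 1 list of broad peaks each, grouped by the labels. Per the labels, alignment by the authors used BWA 0.7.15 and mm10, and peaks were called with MACS2 2.2.7 in each replicate against its input. The deposited lists give a score scaled from the *q* value, the fold enrichment (a ratio of ChIP to input) and the −log10 *p* and −log10 *q* values of the authors' peak caller. Reads per list are not given here, so depth is unknown, and no peak means none called. Lists held 36662 to 62505 peaks over 34.5 to 56.3 Mb.

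Fold enrichment was ranked as a percentile among the peaks of its own list. Peaks 500 bp or less apart were merged for regions and promoters, and covered length used peaks as listed. Genes came from GENCODE M21, with distances from the outermost annotated start. A difference was called where both lists of one population lay above both of the other. One-population regions used the replicate block because the study compared the populations within each replicate and then intersected the replicates. The labels describe independent replicate experiments with matched inputs. Deviations of same-numbered lists correlated (0.560 for H3K27ac over 14672 genes, 0.918 for H3K27me3 over 8941). They were not scaled for total list length, which differed between replicates in the same direction in both populations. The correlation therefore cannot show that same-numbered lists are matched samples. Named were the 4 genes, all one-population regions and the genes they lie in, the 3 genes nearest in pattern, called members of 2 pathway lists, and some regions that missed the call, picked after their values were seen. Members and lists were chosen with earlier results of these data known. Alternatives were stricter *q*, other merging, overlaps, windows and flanks, scaled lengths, the block and single replicates. Python 3.11.15, SciPy 1.17.1 and bedtools 2.31.1 were used. Simulated lists with planted differences checked only the coding of the calls, and give no error rate for these data. Amplicons of the named enhancers were not placed here, and 1 called gene of a pathway list is not reported here by name.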

Additional observations from a re-analysis of the deposited data

How the results depend on the processing

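Of the counts over the loci, 0 genes had longer H3K27ac in CINs under every alternative tried, and 3 in non-CINs became 4 with the replicate block or with either replicate alone, and 2 at a stricter *q* or as a share of the list. A −log10 *q* of at least 4 gave 1 CIN-only distal H3K27ac region, 1 CIN-only and 0 non-CIN-only distal H3K27me3 regions, and 1 gene with longer H3K27me3 in CINs. It kept 2 of the 7 non-CIN-only H3K27ac regions and 1 of the 6 CIN-only H3K27me3 stretches. Without the replicate block, a region was called where the stretch shared by the replicates, rather than each whole merged peak, met no peak in either list of the other population. This gave 1 CIN-only distal H3K27ac region, in *Bcl2l1*, and 5 CIN-only H3K27me3 regions, and lost none of the paired ones. Flanks of 100 kb left 2 non-CIN-only H3K27ac regions, 1 CIN-only and 0 non-CIN-only H3K27me3 regions, and flanks of 500 kb brought 5 CIN-only H3K27ac regions. Merging up to 1000 bp and a reciprocal overlap of 50% each left 1 non-CIN-only H3K27me3 region, and that overlap kept 5 of 7 H3K27ac and 3 of 6 CIN-only H3K27me3 stretches. Except for the replicate block of gene lengths, these settings were not set against a share of all genes or regions under the same rule. Whether their counts stand out from the genome was thus not tested. With either replicate alone, distal CIN-only and non-CIN-only regions numbered 10 to 15 and 23 to 34 for H3K27ac and 13 to 17 and 16 to 20 for H3K27me3, and 0 to 1 genes had longer H3K27me3 in non-CINs. The distal H3K27ac shares were 15.5% to 15.6% (23.7% to 30.6% of the genome) and 35.1% to 35.9% (24.4% to 25.1%), and those of H3K27me3 25.5% to 28.3% (20.0% to 25.2%) and 31.4% to 33.3% (36.8% to 39.6%). The gene with 250 kb on either side gave 1 gene with longer H3K27me3 in CINs, and promoters of 2 kb either side gave both marks at 3 genes in CINs (5.57% of all genes) and 2 in non-CINs (5.36%). Block values for flanks, percentiles and common regions, given with those results, were added after the data were seen. In a further added alternative, leaving out the region 123.2 kb downstream of *Id4* turned its downstream H3K27ac difference from -2707.0 to 380.0 bp (non-CINs minus CINs). The causes were not tested.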
